A study of Homo sapiens with 21 samples.

Results

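The secreted cues, membrane-bound cues and receptors that steer growing axons were described in SH-SY5Y, a neuroblastoma cell line of human origin that can be turned towards a neuronal state. Members were the ephrins and Eph receptors, the semaphorins of classes 3 to 7 with their plexin and neuropilin receptors, the slits and robos, and the netrins with DCC and the UNC5 receptors. They were matched by gene symbol, not by a cut-off on measured values, but the set was chosen with earlier results of these data known. Of 18132 genes with a value, 67 were members: 34 ligands and 33 receptors or co-receptors. Growth cones read such cues through pairs of ligand and receptor. Slits act through robo receptors and mostly repel; class 3 semaphorins bind neuropilins, which carry the signal into the cell together with plexins; netrins attract through DCC and repel through UNC5 receptors; ephrins and Eph receptors signal in both directions at cell contacts. In the sympathetic lineage, from which neuroblastoma arises, semaphorin and neuropilin signals are known to shape the migration of precursor cells and the growth of their fibres.

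Expression was measured on 21 PrimeView arrays, 3 in each of 7 groups. The cells were wild type (WT) or carried the V717F mutation in the amyloid precursor protein (APP-V717F, here APP cells), a change known from familial Alzheimer's disease. In all groups retinoic acid (10 µM) and BDNF (50 ng/mL) drove differentiation over 3 to 4 days, and a compound or 0.1% DMSO as vehicle was then present for 72 h. The WT groups received DMSO (WT_DMSO), AG494 (WT_AG494), NOSCA (WT_NOSCA) or PALBO (WT_PALBO), and the groups of APP cells are named APP_DMSO, APP_AG494 and APP_NOSCA in the same way. AG494 blocks the tyrosine kinase of the EGF receptor; NOSCA and PALBO are label names, and no dose is stated for any compound. The mutated cells are treated as 1 line, so that a genotype difference cannot be told apart from a difference between lines, and p-values measure the spread between cultures of these lines. The series speaks of 3 independent experiments. The title numbers of the arrays fall in 3 runs, each with 1 array of every group, and a second fit took the run as a replicate block.

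Values are log2 intensities of the brightest probe set of each gene, with array medians from 7.877 to 8.03, and the number of arrays limits their precision. They carry no detection call, so a dim gene may be close to background. Apart from the rank of marker genes among all genes and the naming of dim genes, the levels of different genes are not set against each other. A member was called, that is, counted as higher or lower, at an adjusted p under 0.05 in limma's test over all genes (Benjamini-Hochberg), and a log2 difference of 1 is a doubling. The APP probe set, which does not tell the mutated from the normal transcript, gave 12.57 ± 0.07 (SD, n = 3) for vehicle-treated WT cells and, at 12.29 ± 0.06 (SD, n = 3), slightly less for vehicle-treated APP cells (log2 difference -0.28, limma adjusted p = 0.041). Of 11 measured noradrenergic neuroblastoma markers, 10 lay among the brightest 33.3% of all genes, with TH below them. Of 12 measured mesenchymal neuroblastoma markers, 3 lay there too: VIM, FN1 and TWIST1. None of the measured Schwann cell and glial (10), immune (7) or endothelial (7) markers did. Of the 67 members, 30 were called in at least 1 of 8 comparisons of genotype or of compound with vehicle, and 37 in none. These counts are from the fit without the replicate block, and the share of all genes over the 8 comparisons was not counted.

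Because ROBO2 and SLIT2 gave the largest genotype differences under vehicle and their family members are compared with them, the promoters of the 3 slits and ROBO2 are shown before their values: the 250 bases before each RefSeq start (build GRCh38.p14), 5′ to 3′ on the gene's strand, with every GC box (GGGCGG, or CCGCCC for the other strand) in capitals. ROBO2 has a pair of listed starts, of which the more distal one is the first shown. The RefSeq gene begins farther upstream still, at chr3:75906675, and no window for that start was listed. For SLIT2 the window is chr4:20251655-20251904 on the plus strand, for SLIT1 chr10:97185960-97186209 on the minus strand, for SLIT3 chr5:169301140-169301389 on the minus strand, and for ROBO2 chr3:76310630-76310879 and chr3:77039849-77040098 on the plus strand.
SLIT2: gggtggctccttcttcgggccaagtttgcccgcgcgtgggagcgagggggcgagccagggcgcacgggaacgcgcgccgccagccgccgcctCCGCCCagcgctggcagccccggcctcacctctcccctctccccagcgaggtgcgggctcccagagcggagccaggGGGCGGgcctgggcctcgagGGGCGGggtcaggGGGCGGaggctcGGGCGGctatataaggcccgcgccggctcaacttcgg
SLIT1: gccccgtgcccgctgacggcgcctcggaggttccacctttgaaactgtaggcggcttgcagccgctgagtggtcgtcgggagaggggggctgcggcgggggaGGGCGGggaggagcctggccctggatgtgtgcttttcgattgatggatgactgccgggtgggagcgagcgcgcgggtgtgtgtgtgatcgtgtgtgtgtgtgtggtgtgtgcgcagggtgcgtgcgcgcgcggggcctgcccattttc
SLIT3: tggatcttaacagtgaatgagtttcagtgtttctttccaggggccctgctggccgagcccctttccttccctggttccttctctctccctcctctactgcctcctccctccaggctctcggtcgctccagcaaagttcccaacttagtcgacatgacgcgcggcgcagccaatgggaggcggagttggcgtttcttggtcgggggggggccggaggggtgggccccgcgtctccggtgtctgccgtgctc
ROBO2 distal: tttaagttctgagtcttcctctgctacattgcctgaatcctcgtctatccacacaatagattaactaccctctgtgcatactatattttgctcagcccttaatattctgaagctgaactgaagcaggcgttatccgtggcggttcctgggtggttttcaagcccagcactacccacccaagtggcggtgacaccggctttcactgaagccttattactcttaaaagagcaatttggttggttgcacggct
ROBO2 proximal: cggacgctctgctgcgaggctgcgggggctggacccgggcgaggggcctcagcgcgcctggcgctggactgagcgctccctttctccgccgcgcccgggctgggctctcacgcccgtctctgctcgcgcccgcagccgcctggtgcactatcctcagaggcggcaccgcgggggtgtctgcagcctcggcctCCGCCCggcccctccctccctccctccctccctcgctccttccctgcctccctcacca
The SLIT2 window held 5 GC boxes and was 77.2% G or C. SLIT1 had 1 GC box (68.4% G or C) and SLIT3 had none (62.8%). The distal ROBO2 window had none at 46.8% G or C, and the proximal one had 1 at 76.0%. A GC box occurred in 42.6% of 35116 RefSeq windows of this length and in 61 of the 88 windows listed for 57 of the 67 members. No window of the slits held a match to the E-box CANNTG (61.8% of all windows). None of the 5 windows held an exact match to the retinoid receptor half-site AGGTCA (12.1%) or the TATA box TATAAA (10.7%). Variants of these motifs were not searched, and the SLIT2 window holds the TATA-like stretch tatataa near its end. All counts are letter matches on either strand and no measured sites.

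Slit ligands were lower and the ROBO2 receptor was higher in APP than in WT cells under vehicle. Of the 7 class 3 semaphorins, SEMA3A and SEMA3D were higher, as were both neuropilins, NRP1 and NRP2. Among the netrin and Eph receptors, UNC5B and EPHA6 were lower. In all, 15 of the 67 members were called between APP_DMSO and WT_DMSO, 8 higher and 7 lower (22.4%), against 9.25% of all genes tested, of which 5.2% were higher and 4.05% lower. The arrays of the groups did not overlap for 28 members, against 22.1% of all genes. The median absolute log2 difference was 0.18 over the members and 0.1 over all genes. With the run of title numbers as a replicate block, 25 members were called, 13 higher and 12 lower, against 17.4% of all genes. In bulk RNA, fewer cells of a type and less RNA per cell cannot be told apart.

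SLIT2, a secreted repellent of axons, read 10.70, 10.53 and 10.39 in the WT_DMSO arrays and 8.71, 8.73 and 8.89 in the APP_DMSO arrays. The groups were far apart, and SLIT2 was 3.39-fold lower in APP cells (log2 difference -1.76, SE 0.10, limma adjusted p = 7.3e-10). SLIT1, a family member known mainly from the nervous system, read 7.83, 7.64 and 7.63 in WT_DMSO and 6.28, 6.46 and 6.61 in APP_DMSO arrays, again without overlap (log2 difference -1.25, SE 0.15, limma adjusted p = 1.1e-05). Only 1 of its 2 probe sets was called, and the mean of the pair gave -0.64. SLIT3 read 11.26, 11.22 and 10.98 in WT_DMSO against 10.65, 10.86 and 10.41 in APP_DMSO arrays, a smaller difference of -0.51 (SE 0.12, limma adjusted p = 0.0096). Its arrays did not overlap either, but the call was lost without WT_DMSO replicate 1 or APP_DMSO replicate 3 (log2 difference -0.46 to -0.40, adjusted p = 0.051 to 0.063). The SLIT3 call was also lost with only the compared groups in the fit (limma adjusted p = 0.078). Thus all 3 slits were called lower, although SLIT2 and SLIT3 rest on a single probe set each.

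Of the 4 robo receptors, 1 was called. ROBO2 read 7.35, 6.91 and 6.70 in WT_DMSO arrays and 8.92, 8.72 and 9.25 in APP_DMSO arrays. It was 3.93-fold higher in APP cells (log2 difference 1.98, SE 0.20, limma adjusted p = 1.5e-06), the largest difference of any member in this comparison, and all 3 of its probe sets were called higher (1.47 to 1.98). ROBO1, the other slit receptor of neurons, differed by 0.18 and was not called.

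**Figure D1:**
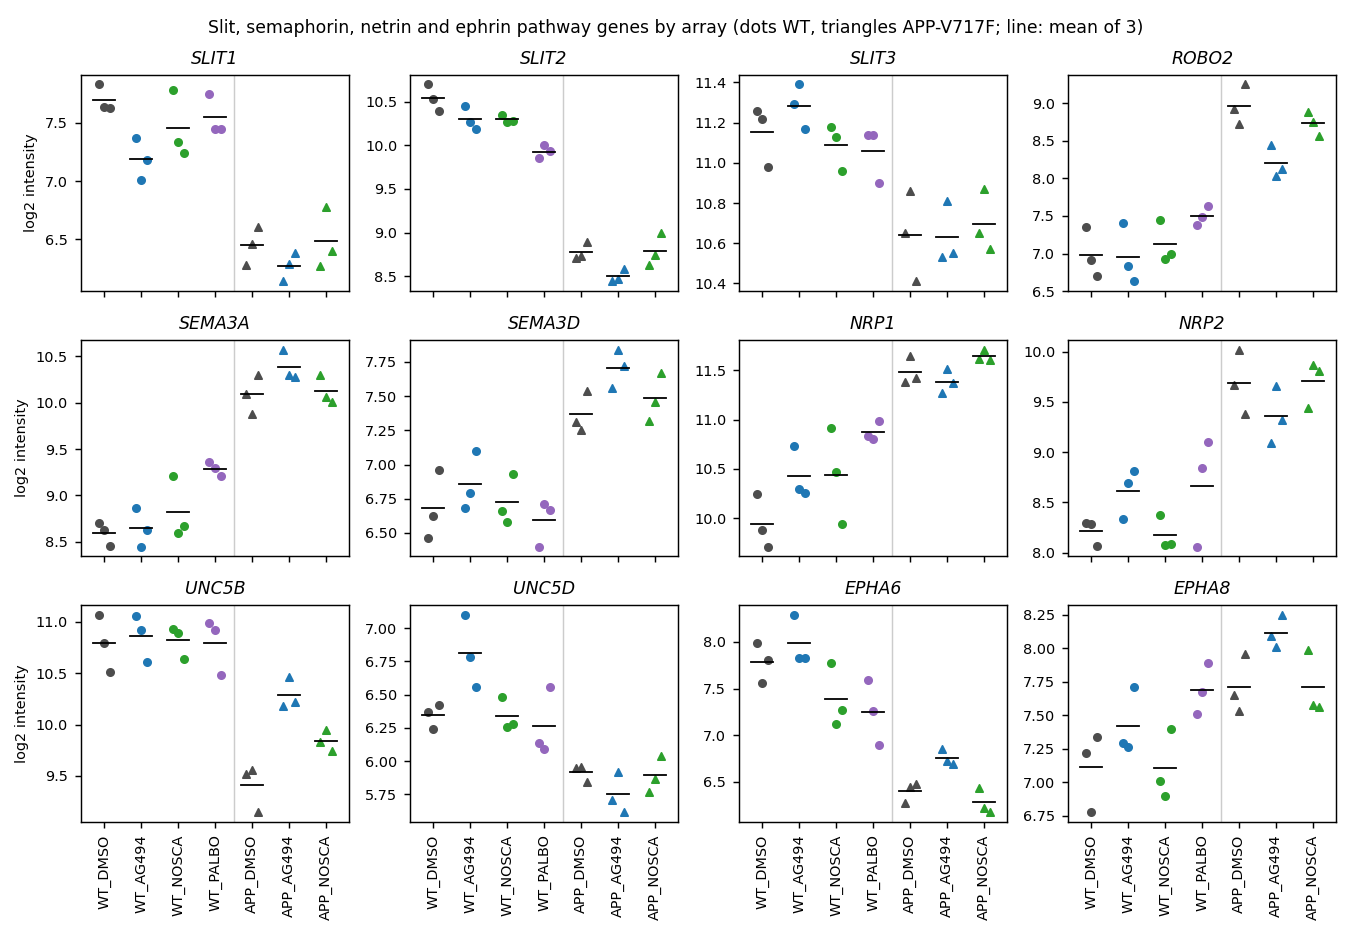
Log2 intensity of 12 members by array; dots are WT and triangles APP cells, grouped by treatment on the x axis, and each line is the mean of 3 arrays. SLIT2 lies at 8.44 to 8.99 in all APP arrays and at 9.85 to 10.70 in all WT arrays, and ROBO2 at 8.03 to 9.25 against 6.63 to 7.63.

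SEMA3A, a secreted repellent that collapses growth cones through NRP1, read 8.70, 8.63 and 8.46 in WT_DMSO arrays and 10.09, 9.88 and 10.30 in APP_DMSO arrays. It was 2.81-fold higher in APP cells (log2 difference 1.49, SE 0.15, limma adjusted p = 1.3e-06), and both of its probe sets were called. SEMA3D, of the same secreted class, read 6.46, 6.62 and 6.96 against 7.31, 7.25 and 7.54 (log2 difference 0.69, SE 0.14, limma adjusted p = 0.0038; 0.37 over the mean of its probe sets). The other 5 class 3 semaphorins were not called; SEMA3C differed by -0.72 without overlap of the arrays, with an adjusted p of 0.052 in limma's test and 0.00018 with the replicate block.

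Both neuropilins, the binding co-receptors of class 3 semaphorins and of VEGF, were higher. NRP1 read 10.24, 9.88 and 9.71 in WT_DMSO arrays and 11.38, 11.64 and 11.42 in APP_DMSO arrays (log2 difference 1.53, SE 0.18, limma adjusted p = 1.2e-05). NRP2 read 8.29, 8.28 and 8.07 against 9.67, 10.02 and 9.38 (log2 difference 1.48, SE 0.22, limma adjusted p = 0.00015). Neither gene's groups overlapped. All 9 probe sets of NRP2 had the same sign and 8 were called; for NRP1 these were 6 of 6 and 4. No plexin, the signalling partner of neuropilins, was called under vehicle, and the 9 plexins ranged from -0.10 to 0.42. With the replicate block PLXNA1 (0.42, adjusted p = 0.0061), PLXNA3 (0.29, 0.036) and PLXND1 (0.39, 0.033) were called higher.

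Of the 12 transmembrane semaphorins, SEMA5A alone was called. It read 9.33, 9.10 and 9.71 in WT_DMSO arrays and 8.13, 7.67 and 8.50 in APP_DMSO arrays, lower by a log2 difference of -1.28 (SE 0.24, limma adjusted p = 0.0016), and all 5 of its probe sets were called lower. SEMA6A, a ligand of plexins A2 and A4, differed by 0.51 and was called higher with the replicate block (adjusted p = 5.1e-05, against 0.087 without it).

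Among the receptors of netrin, UNC5B, which mediates repulsion, read 11.07, 10.79 and 10.51 in WT_DMSO arrays and 9.52, 9.56 and 9.15 in APP_DMSO arrays. It was 2.6-fold lower in APP cells (log2 difference -1.38, SE 0.16, limma adjusted p = 7.9e-06), without overlap and on all 3 probe sets. Its relative UNC5C moved the other way, from 10.49, 10.60 and 10.47 to 10.88, 10.98 and 10.90 (log2 difference 0.40, SE 0.08, limma adjusted p = 0.0018). UNC5D differed by -0.43 and was called lower with the replicate block (adjusted p = 0.038, against 0.053 without it). NTN4, a netrin of basement membranes, was higher by 0.57 (SE 0.12, limma adjusted p = 0.0055), while NTN1, NTN3, DCC and UNC5A were not called.

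In the Eph family, EPHA6, a receptor of ephrin-A ligands, read 7.99, 7.56 and 7.81 in WT_DMSO arrays and 6.27, 6.45 and 6.48 in APP_DMSO arrays. It was 2.62-fold lower in APP cells (log2 difference -1.39, SE 0.18, limma adjusted p = 2.4e-05), but only 1 of its 5 probe sets was called and the mean over them gave -0.42. EPHA8 was higher by 0.60 (SE 0.17, limma adjusted p = 0.033). That call was lost without WT_DMSO replicate 1 or 2 or APP_DMSO replicate 1 or 3 (log2 difference 0.43 to 0.66, adjusted p = 0.052 to 0.18). The EPHA8 call was also lost with only the compared groups in the fit. EFNA2, an ephrin-A ligand, read 7.71, 7.69 and 7.98 against 7.08, 7.11 and 7.05 (log2 difference -0.71, SE 0.10, limma adjusted p = 4.9e-05). By their brightest probe sets, the other 7 ephrins and 11 Eph receptors were not called. For EPHB1, an ephrin-B receptor, that probe set differed by 0.16, but all 6 of its probe sets had the same sign and 3 were called higher (up to 1.35). EFNA3 and EFNA5 each had 1 called probe set. With the block, EFNA1 (-0.66, adjusted p = 7.5e-05), EPHA2 (-0.34, 0.016) and EPHB4 (-0.42, 0.0016) were called lower and EFNA5 (0.21, 0.031) higher. Without WT_DMSO replicate 3, 23 members were called under vehicle, 12 higher and 11 lower. With each array centred on its median the split was 8 higher to 11 lower. The shares of all genes in these alternative fits are not given here, so both counts concern the members alone.

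The genotype difference was measured again under AG494 and under NOSCA, in arrays that share none with the vehicle comparison. Under AG494, 14 members were called, 7 higher and 7 lower (20.9%), against 9.02% of all genes (4.1% higher and 4.92% lower). Under NOSCA there were 15, 8 higher and 7 lower (22.4%), against 7.2% of all genes (3.56% higher and 3.65% lower); blocking by run gave 23 (11 up, 12 down) against 14.8% of all genes. In all 3 comparisons the same 10 members were called in the same direction: EPHA8, SEMA3A, SEMA3D, NRP1, NRP2 and ROBO2 higher and EPHA6, SLIT1, SLIT2 and UNC5B lower. That is 10 of 67 members against 682 of 18132 genes, or 3.76%. Any of the 3 comparisons called 19 members (28.4%) and 15.1% of all genes, no member in opposite directions. Every called member also had the same sign within each of the 3 runs of title numbers. A call makes such agreement likely, and its share among all called genes was not counted.

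**Figure D2:**
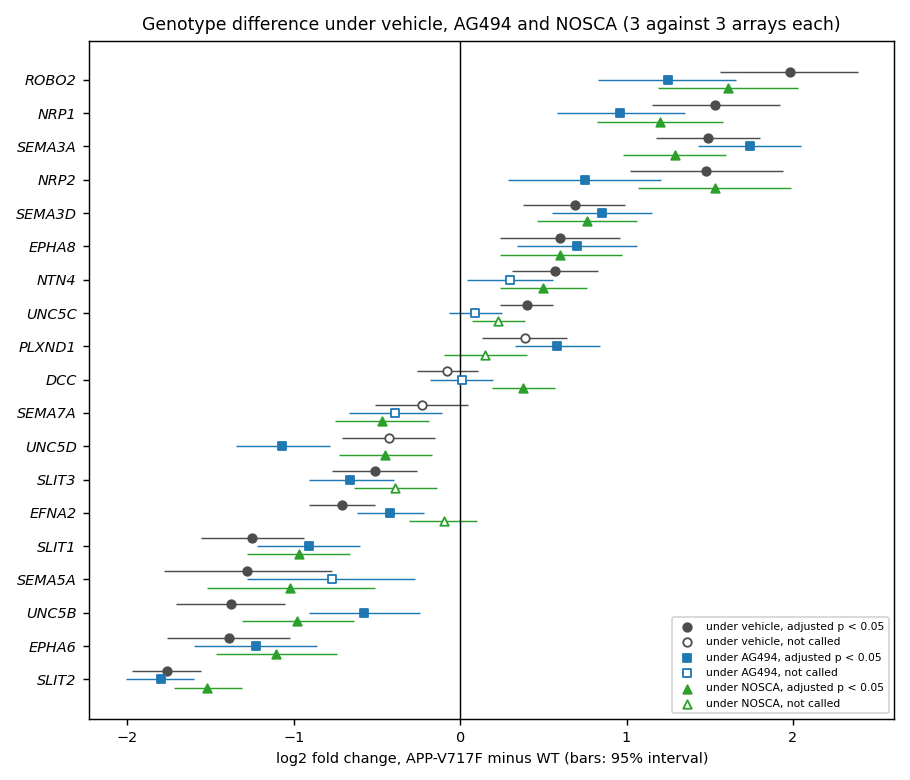
Log2 difference between APP and WT cells for the 19 members called in at least 1 genotype comparison, under vehicle, AG494 and NOSCA; bars are 95% intervals from limma and filled symbols are called at adjusted p under 0.05. ROBO2, NRP1 and SEMA3A lie near the top and SLIT2 at the bottom, from -1.80 to -1.52.

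SLIT2 differed by -1.76, -1.80 and -1.52 under vehicle, AG494 and NOSCA. Its APP arrays read 8.44, 8.47 and 8.58 with AG494 and 8.63, 8.74 and 8.99 with NOSCA, and its WT arrays 10.45, 10.27 and 10.19 with AG494 and 10.35, 10.27 and 10.28 with NOSCA. SLIT1 differed by -1.25, -0.91 and -0.97. SLIT3 differed by -0.51, -0.66 and -0.39, of which the last was called only with the replicate block (adjusted p = 0.00081, against 0.06 without it). Over the mean of its probe sets SLIT1 differed by -0.64, -0.51 and -0.54 and was called each time.

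ROBO2 differed by 1.98, 1.25 and 1.61. SEMA3A differed by 1.49, 1.74 and 1.29, and SEMA3D by 0.69, 0.85 and 0.76 (0.37, 0.45 and 0.39 over the mean of probe sets). NRP1 differed by 1.53, 0.96 and 1.20. NRP2 differed by 1.48, 0.75 and 1.53; under AG494 its call was lost without WT_AG494 replicate 1 or 2 or APP_AG494 replicate 2 or 3 (log2 difference 0.60 to 0.79, adjusted p = 0.073 to 0.19), and under NOSCA the mean of its probe sets gave 0.93. These 4 genes of the class 3 semaphorin system are among the 10 named for calls in the same direction, so their agreement follows from that choice. Called or not, 41 of the 67 members (61.2%) and 50.8% of all genes had the same sign under all 3 treatments.

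UNC5B differed by -1.38, -0.58 and -0.98. Under AG494 its call was lost without replicate 1 of either group, WT_AG494 replicate 2 or APP_AG494 replicate 3 (log2 difference -0.55 to -0.48, adjusted p = 0.085 to 0.14). UNC5D differed by -0.43, -1.07 and -0.45, the second of these with a limma adjusted p of 2.4e-05 and the last with 0.0497. The NOSCA call of UNC5D was lost with each array centred on its median, with a trended and robust prior, and without any array of WT_NOSCA or without APP_NOSCA replicate 1 or 2 (log2 difference -0.48 to -0.38, adjusted p = 0.081 to 0.17 for arrays left out). NTN4 was called under vehicle and NOSCA (0.57 and 0.50) and differed by 0.30 under AG494, a call only with the block (adjusted p = 0.043). Its NOSCA call was lost without APP_NOSCA replicate 1 or 3 or WT_NOSCA replicate 2 (log2 difference 0.35 to 0.47, adjusted p = 0.066 to 0.11). The same call was lost with only the compared groups in the fit (limma adjusted p = 0.12).

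EPHA6 differed by -1.39, -1.23 and -1.11, and by -0.42, -0.42 and -0.36 over the mean of its probe sets. EPHA8 differed by 0.60, 0.70 and 0.60. Its calls were lost without WT_AG494 replicate 1 or 2 or APP_AG494 replicate 3 (adjusted p = 0.064 to 0.069) and, under NOSCA, without any array except WT_NOSCA replicate 3 (adjusted p = 0.052 to 0.18). The NOSCA call of EPHA8 was also lost with only the compared groups in the fit. SEMA5A differed by -1.28, -0.77 and -1.02. The middle value was called with the replicate block (adjusted p = 0.0036, against 0.053 without it), and the NOSCA call was lost without WT_NOSCA replicate 1 or APP_NOSCA replicate 3 (log2 difference -0.95 to -0.90, adjusted p = 0.055 to 0.06).

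Some members were called under only 1 or a pair of the treatments. With the replicate block EFNA1 was lower under AG494 and NOSCA too (-0.31, adjusted p = 0.028, and -0.49, 0.0016), SEMA7A (-0.39, 0.0055) and PLXNA4 (-0.27, 0.026) were lower under AG494, EPHB3 (-0.31, 0.038), EPHB4 (-0.28, 0.028) and SEMA3C (-0.45, 0.01) were lower under NOSCA, and EPHB1 (0.39, 0.042), SEMA6A (0.25, 0.022) and UNC5C (0.23, 0.028) were higher under NOSCA. EFNA2 was lower under vehicle and AG494 (-0.71 and -0.42) and differed by -0.10 under NOSCA. PLXND1, a receptor of SEMA3E, was higher under AG494 (0.58, limma adjusted p = 0.0032, and 0.34 over the mean of its probe sets). SEMA7A, a lipid-anchored semaphorin, was lower under NOSCA by -0.47 (limma adjusted p = 0.037). The call was lost over the mean of its probe sets (-0.20, adjusted p = 0.077) and with only the compared groups in the fit. Without any array except WT_NOSCA replicate 3 it was lost as well (log2 difference -0.52 to -0.37, adjusted p = 0.055 to 0.19). DCC, the attractive netrin receptor, was dim on these arrays, at 5.64, 5.62 and 5.61 in WT_NOSCA and 5.78, 6.07 and 6.15 in APP_NOSCA arrays. Its difference of 0.38 (limma adjusted p = 0.012) was 0.23 over the mean of probe sets and was not called without APP_NOSCA replicate 2 or 3 (0.31 to 0.34, adjusted p = 0.062 to 0.078). With only the compared groups in the fit DCC was not called either (limma adjusted p = 0.089). Whether differences between treatments can be called was tested by the interactions with the genotype, which called none of them.

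Genes that work beside these cues and receptors were read from lists, beside 9.25% of all genes called under vehicle. Of 40 other guidance cues and receptors, 5 were higher and 2 lower under vehicle, with NTNG1, a membrane-anchored netrin relative, at 1.68 (SE 0.23, limma adjusted p = 5.2e-05), HGF at 1.01 (SE 0.08, adjusted p = 9e-08), CXCL12 at 1.01 (SE 0.21, adjusted p = 0.0036) and RGMB at 0.67 (SE 0.17, adjusted p = 0.018). Of 26 co-receptors and adhesion molecules, 5 were higher and 2 lower, among them the glypican GPC3 at -0.84 and the contactin CNTN2 at 0.76. Of 66 intracellular effectors, 3 were higher and 3 lower, a share near that of all genes; NGEF, an exchange factor downstream of EphA receptors, was higher by 0.99 and the kinase PRKCA lower by 0.91 (log2 difference -0.91). Of 17 proteases that cut guidance receptors or their ligands, PCSK6 (-1.0) and MMP2 (-0.38) were lower and none was higher.

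Mesenchymal neuroblastoma markers moved with the genotype. Of 12 measured, 5 were lower under vehicle, with COL1A1 at -1.19 and SNAI2 at -1.15, and none was higher. The mean of the list was 8.78 to 9.0 in the WT_DMSO arrays and 8.51 to 8.56 in the APP_DMSO arrays. Under AG494 4 were lower and 1 higher, and under NOSCA 4 were lower. Of the 10 Schwann cell and glial markers, S100B was lower under vehicle, AG494 and NOSCA (log2 differences -1.01, -0.77 and -1.20, limma adjusted p = 9.5e-05, 0.0015 and 1.7e-05), and of the 7 endothelial markers EGFL7 was lower under vehicle (-0.69, adjusted p = 0.016). Under AG494 the immune marker CD68 (0.45) and the endothelial marker PECAM1 (0.34) were higher. The part of these markers in the results on slits, semaphorins and their receptors was not tested. The noradrenergic list, with 1 marker higher and 2 lower under vehicle, overlapped between the groups (11.77 to 12.08 against 11.80 to 11.89).

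PALBO in WT cells raised the plexin PLXNA2, NRP1, SEMA3A and SEMA3G and lowered SEMA5A, PLXNC1, EPHB4 and SLIT2. Of the 67 members, 13 were called against vehicle, 6 higher and 7 lower (19.4%), against 6.98% of all genes (3.11% higher and 3.87% lower). With the replicate block there were 20, 11 higher and 9 lower, against 15.1% of all genes. Without WT_PALBO replicate 3, 8 were called, 3 higher and 5 lower, and with only the compared groups in the fit 6. For these fits the shares of all genes are not given here. The WT_DMSO arrays are shared with the genotype comparison under vehicle and with the other WT compound comparisons, so that those results are not independent.

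PLXNA2, a plexin that transmits signals of class 3 and class 6 semaphorins, read 8.69, 8.62 and 8.72 in WT_DMSO arrays and 9.40, 9.97 and 10.13 in WT_PALBO arrays. It rose 2.23-fold (log2 difference 1.16, SE 0.13, limma adjusted p = 2.1e-05), and no array of any other group exceeded 9.10. NRP1 rose from 10.24, 9.88 and 9.71 to 10.83, 10.80 and 10.98 (log2 difference 0.92, SE 0.18, limma adjusted p = 0.0035). NRP2 read 8.06, 8.84 and 9.10 with PALBO, overlapped with vehicle and was not called.

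Of the secreted semaphorins, SEMA3A rose to 9.36, 9.30 and 9.21 with PALBO (log2 difference 0.69, SE 0.15, limma adjusted p = 0.0059), between the levels of WT_DMSO and APP_DMSO arrays. SEMA3G, which binds NRP2, read 6.88, 6.64 and 6.93 with vehicle and 7.28, 7.41 and 7.81 with PALBO (log2 difference 0.68, SE 0.16, limma adjusted p = 0.011). The mean of its probe sets gave 0.32, and the call was lost without WT_DMSO replicate 2 or WT_PALBO replicate 3 (log2 difference 0.53 to 0.59, adjusted p = 0.062 to 0.079).

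Of the transmembrane semaphorins, SEMA5A read 9.33, 9.10 and 9.71 with vehicle and 8.67, 7.96 and 8.57 with PALBO, lower without overlap (log2 difference -0.98, SE 0.24, limma adjusted p = 0.016). Without WT_PALBO replicate 2 or WT_DMSO replicate 3 it was not called (log2 difference -0.82 to -0.76, adjusted p = 0.078 to 0.11). SEMA6A fell by 0.65 (log2 difference -0.65, limma adjusted p = 0.03) and SEMA4F rose by 0.32 (limma adjusted p = 0.02). The SEMA6A call was lost without WT_PALBO replicate 1 or 3 or WT_DMSO replicate 2 or 3 (adjusted p = 0.065 to 0.17), and that of SEMA4F without WT_DMSO replicate 1 or 3 or WT_PALBO replicate 2 or 3 (adjusted p = 0.07 to 0.098) and over the mean of its probe sets (0.30, adjusted p = 0.067).

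PLXNC1, the receptor of SEMA7A, read 7.62, 7.81 and 8.37 with vehicle and 6.66, 7.06 and 7.49 with PALBO (log2 difference -0.86, SE 0.22, limma adjusted p = 0.018). Its call was lost over the mean of its probe sets (-0.66, adjusted p = 0.052) and without WT_PALBO replicate 1 or 2 or WT_DMSO replicate 3 (adjusted p = 0.059 to 0.11). PLXNB2, a receptor of class 4 semaphorins, fell by 0.29 (log2 difference -0.29, limma adjusted p = 0.028), not called without replicate 1 or 3 of either group (adjusted p = 0.052 to 0.12). EPHB4, the receptor of ephrin-B2, read 10.49, 10.26 and 10.17 with vehicle and 9.79, 9.66 and 9.25 with PALBO (log2 difference -0.74, SE 0.13, limma adjusted p = 0.0014). SLIT2 fell to 9.85, 10.00 and 9.94 (log2 difference -0.61, SE 0.10, limma adjusted p = 0.00059), still above every APP array. EPHA8 rose by 0.58 with an adjusted p of 0.0497 in limma's test, a call lost without any array of the pair of groups except WT_DMSO replicate 3 (0.41 to 0.67, adjusted p = 0.051 to 0.23).

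**Figure D3:**
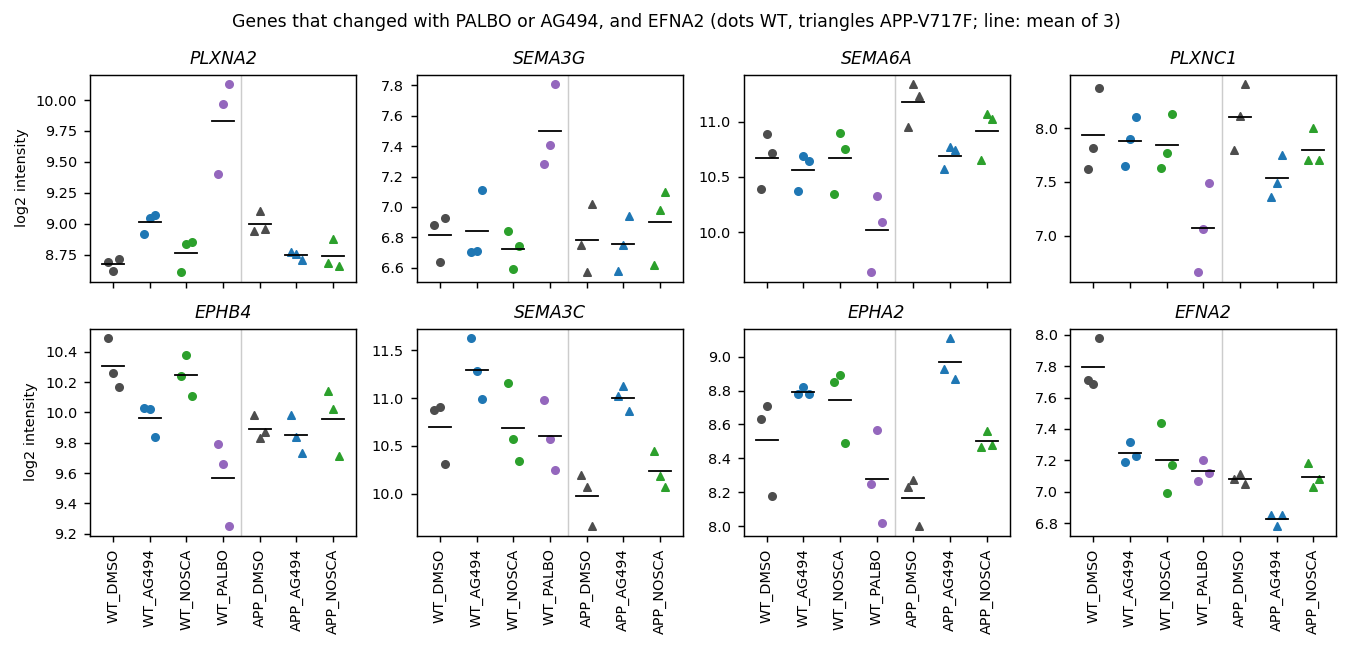
Log2 intensity by array of 8 members that changed with a compound; dots are WT and triangles APP cells, grouped by treatment, and each line is the mean of 3 arrays. PLXNA2 reaches 9.40 to 10.13 with PALBO, and EFNA2 is at 7.69 to 7.98 in WT_DMSO arrays and at or below 7.44 in all others.

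With the replicate block ROBO2 (0.51, adjusted p = 0.042), PLXNA3 (0.38, 0.0081), EFNB3 (0.19, 0.023), SEMA6C (0.33, 0.046) and SEMA6D (0.41, 0.033) were also called higher with PALBO. EPHA6 (-0.53, 0.0099) and EPHB3 (-0.31, 0.034) were called lower in that fit. The netrins and their 5 receptors, from -0.15 to 0.11 on the log2 scale, gave no call.

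Beyond the members, FLRT1, of a family of adhesion proteins that bind UNC5 receptors, rose by 1.56 with PALBO (SE 0.23, limma adjusted p = 0.00033), LRRC4C, a ligand of NTNG1, by 0.99 (SE 0.27, adjusted p = 0.031), and SLITRK5 was lower (-1.08, SE 0.16, adjusted p = 0.00038). These belong to 2 higher and 3 lower of 40 other cues and receptors, where 6.98% of all genes were called. Of 26 co-receptors and adhesion molecules 3 rose, led by NFASC at 0.92 and CNTN2 at 0.81, and 2 fell. Of 66 effectors 3 rose, with the microtubule protein DCX at 0.93, and 2 fell, a share near that of all genes. Of 17 proteases PSEN2 (0.49) and NCSTN (0.23), components of gamma-secretase, rose. Mesenchymal markers moved here too: 5 of 12 were lower, YAP1 by -0.93 and COL1A1 by -0.88, with list means of 8.44 to 8.60 in WT_PALBO arrays against 8.78 to 9.0 with vehicle. The glial marker S100B (0.95, limma adjusted p = 0.00039) and the noradrenergic markers CHGA (0.49) and ISL1 (0.43) were higher. The part of these markers in the members' results was not tested.

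AG494 and NOSCA in WT cells called 1 member each, EFNA2 in both cases. For AG494 that is 1.49% of members against 0.254% of all genes (0.165% higher and 0.0882% lower); blocking by run gave 4 members, 2 in each direction, against 1.97%. For NOSCA it is 1.49% against 0.0165% of all genes, of which 0.011% were lower and 0.00552% higher. EFNA2 read 7.71, 7.69 and 7.98 with vehicle, 7.19, 7.32 and 7.23 with AG494, 7.44, 6.99 and 7.17 with NOSCA and 7.07, 7.20 and 7.12 with PALBO. The log2 differences were -0.54 (limma adjusted p = 0.018), -0.59 (0.048) and -0.66 (0.00027), all against the same 3 vehicle arrays, which were higher than every other array. The AG494 call was lost without any WT_AG494 array or WT_DMSO replicate 3 (log2 difference -0.58 to -0.45, adjusted p = 0.055 to 0.11). The NOSCA call was lost without any WT_DMSO array or WT_NOSCA replicate 2 or 3 (-0.64 to -0.48, adjusted p = 0.0501 to 0.16). Next by p with AG494 were UNC5C (0.30, adjusted p = 0.14, and 0.029 with the block) and UNC5D (0.47, adjusted p = 0.19); with the block EPHB4 (-0.35, 0.038) was lower and SEMA3C (0.60, 0.011) higher. Next with NOSCA were NRP1 (0.49) and SEMA4F (0.22), each at an adjusted p of 0.58.

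In APP cells AG494 raised SEMA3C, UNC5B and EPHA2 and lowered ROBO2, PLXNA4 and SEMA5B. These 6 of 67 members (8.96%) stand against 4.75% of all genes (1.99% higher and 2.76% lower). Blocking by run gave 10, 5 in each direction, against 11.8% of all genes. Without APP_AG494 replicate 2 there were 3 and without APP_DMSO replicate 3 there were 2, with the shares of all genes in these fits not given here.

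SEMA3C, a secreted semaphorin, read 10.20, 10.07 and 9.66 in APP_DMSO arrays and 11.02, 11.13 and 10.87 in APP_AG494 arrays (log2 difference 1.03, SE 0.23, limma adjusted p = 0.01). Its arrays did not overlap, but without APP_AG494 replicate 2 or APP_DMSO replicate 3 it was not called (0.87 to 0.97, adjusted p = 0.056 to 0.074). UNC5B rose from 9.52, 9.56 and 9.15 to 10.18, 10.46 and 10.22 (log2 difference 0.88, SE 0.16, limma adjusted p = 0.0026), still below the WT arrays, of which the lowest was 10.48. EPHA2, a receptor of ephrin-A1, rose from 8.23, 8.27 and 8.00 to 8.93, 9.11 and 8.87 (log2 difference 0.80, SE 0.14, limma adjusted p = 0.0023).

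ROBO2 fell from 8.92, 8.72 and 9.25 to 8.45, 8.03 and 8.13 (log2 difference -0.76, SE 0.20, limma adjusted p = 0.032), which is above every WT array. That call was lost over the mean of its probe sets (-0.62, adjusted p = 0.066) and without APP_DMSO replicate 1 or 3 or APP_AG494 replicate 2 or 3 (adjusted p = 0.069 to 0.18). SEMA5B, a transmembrane semaphorin, read 9.32, 9.26 and 9.56 with vehicle and 8.63, 8.96 and 8.96 with AG494 (log2 difference -0.53, SE 0.11, limma adjusted p = 0.0089), not called without APP_AG494 replicate 1 or APP_DMSO replicate 3 (-0.44 to -0.42, adjusted p = 0.051 to 0.065). PLXNA4, a plexin for SEMA3A, fell from 11.32, 11.59 and 11.65 to 10.83, 10.98 and 11.15 (log2 difference -0.54, SE 0.15, limma adjusted p = 0.045). It was not called after either rescaling of the arrays, nor without any single array except APP_DMSO replicate 1 (-0.62 to -0.46, adjusted p = 0.054 to 0.19). The block added EPHA8 (0.40, adjusted p = 0.046) and SEMA3D (0.34, 0.016) as higher and SEMA6A (-0.48, 0.00022) and PLXNC1 (-0.58, 0.0046) as lower. The genotype difference under vehicle and the AG494 response share the APP_DMSO arrays, so the opposite signs of UNC5B and ROBO2 in them are not independent.

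Of 66 intracellular effectors, 3 rose and 6 fell with AG494 in APP cells: PRKCA by 0.68 (limma adjusted p = 0.0033) and RRAS, a small GTPase on which plexins act, by 0.63 (adjusted p = 0.0058) rose, and NGEF (-0.68, adjusted p = 0.025) and the slit-robo GTPase activator SRGAP2 (-0.53, adjusted p = 0.0036) fell. The adhesion protein CHL1 fell (-1.30, SE 0.30, limma adjusted p = 0.015) and NCAM2 rose (0.76, SE 0.12, adjusted p = 0.00087), among 2 higher and 2 lower of 26. The protease FURIN, which processes semaphorins, rose by 0.60 (adjusted p = 0.0064). None of the 40 other cues and receptors was called. Over all genes 4.75% were called. The immune marker CD68 (0.52, limma adjusted p = 0.0024) and the mesenchymal marker CCN1 (0.50, adjusted p = 0.04) were higher with AG494, and their part in the members' results was not tested.

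NOSCA in APP cells gave no call by limma among the 67 members or over all genes (0%); 6 members had an unadjusted p under 0.05, against 5.29% of all genes. With the replicate block 0 members and 5 genes (0.0276%) were called. The lowest p-values belonged to UNC5B (0.43, interval 0.10 to 0.77), SEMA3B (0.19) and DCC (0.22), with adjusted p from 0.81 to 0.86.

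Whether AG494 acted differently in the genotypes was tested by the interaction, for which limma called 0 members and 0.0386% of all genes (0.0165% higher and 0.0221% lower), with 9 members at an unadjusted p under 0.05, against 7.53% of all genes. UNC5B had the lowest p, with a response 0.80 higher in APP than in WT cells (interval 0.33 to 1.27, adjusted p = 0.22, and 0.0097 with the replicate block, the single member called in that fit, against 1.26% of all genes). UNC5D followed with -0.64 (interval -1.04 to -0.24, adjusted p = 0.27) and PLXNA2 with -0.59 (interval -0.98 to -0.21, adjusted p = 0.3). For NOSCA 0 members and 0 genes were called, with 4 members at an unadjusted p under 0.05, against 4.94% of all genes, and 0 called with the block (0.0165% of all genes). EFNA2 (0.61, interval 0.32 to 0.89, adjusted p = 0.88), DCC (0.46, adjusted p = 0.88) and SEMA3B (0.29, adjusted p = 1) had the lowest p there.

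PALBO was set against the other compounds within WT cells, which needs no vehicle arrays, although the doses are unknown. Against AG494, 10 members were called, 4 higher and 6 lower (14.9%), against 3.25% of all genes (1.2% higher and 2.05% lower); blocking by run gave 16 against 8.7%. Against NOSCA there were 7, 4 higher and 3 lower (10.4%), against 3.23% of all genes (1.13% higher and 2.1% lower), and 16 with the block against 7.23%. PLXNA2 was higher with PALBO than with AG494 (8.92, 9.05 and 9.07; log2 difference 0.82, SE 0.13, limma adjusted p = 0.0012) and than with NOSCA (8.61, 8.84 and 8.85; 1.06, SE 0.13, adjusted p = 0.00013), without overlap. SEMA3G was higher by 0.66 and 0.78 (0.37 and 0.39 over the mean of its probe sets) and SEMA6C by 0.45 and 0.41. SLIT2 was lower by 0.37 in each (log2 difference -0.37, limma adjusted p = 0.041 and 0.04). Of 13 alternative fits, SEMA6C lost its call in 5 against AG494 and in 10 against NOSCA. SLIT2 lost it in 7 in each comparison, and SEMA3G in 5 and 2. EPHB4 was lower than with NOSCA (-0.67, SE 0.13, limma adjusted p = 0.0058), and PLXNB2 too (-0.34), while SEMA4G was higher (0.36). Of 13 alternative fits, PLXNB2 lost this call in 5 and SEMA4G in 7. Against AG494, SEMA3A was higher (0.64) and SEMA5A (-0.96), PLXNC1 (-0.82), EPHA6 (-0.73), UNC5D (-0.55) and UNC5C (-0.29) were lower. Over the mean of its probe sets EPHA6 gave -0.19 and was not called. Of 13 alternative fits, SEMA3A and SEMA5A each lost the call in 4, EPHA6 in 5, PLXNC1 in 7 and UNC5C in 8. UNC5D lost it in 5 of 12. Only PLXNA2 in both comparisons and EPHB4 against NOSCA kept their calls with each array left out in turn. EPHB4 lost its call over the mean of its probe sets (-0.51, limma adjusted p = 0.075). With only the compared groups in the fit, PLXNA2 against AG494 (adjusted p = 0.06) and EPHB4 against NOSCA (adjusted p = 0.062) were not called, and PLXNA2 against NOSCA was (adjusted p = 0.027). The block added EPHA2 (-0.51), EPHB4 (-0.40), SEMA3C (-0.70), SEMA6A (-0.55), PLXNA3 (0.33) and ROBO2 (0.54) against AG494. Against NOSCA it added EFNA4 (-0.36), EPHA2 (-0.46), EPHB3 (-0.42), PLXNC1 (-0.77), SEMA5A (-0.89), SEMA6A (-0.65), EPHA8 (0.59), PLXNA3 (0.35) and SEMA3A (0.46). The count against AG494 ranged from 2 (without WT_AG494 replicate 1 or WT_PALBO replicate 2) to 8, with 6, 3 and 4 without WT_PALBO replicate 1, WT_AG494 replicate 2 and WT_PALBO replicate 3. Against NOSCA it ranged from 3 (without WT_NOSCA replicate 2 or WT_PALBO replicate 3) to 8, with 4 without WT_NOSCA replicate 3. Shares of all genes with arrays left out are not given here.

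**Figure D4:**
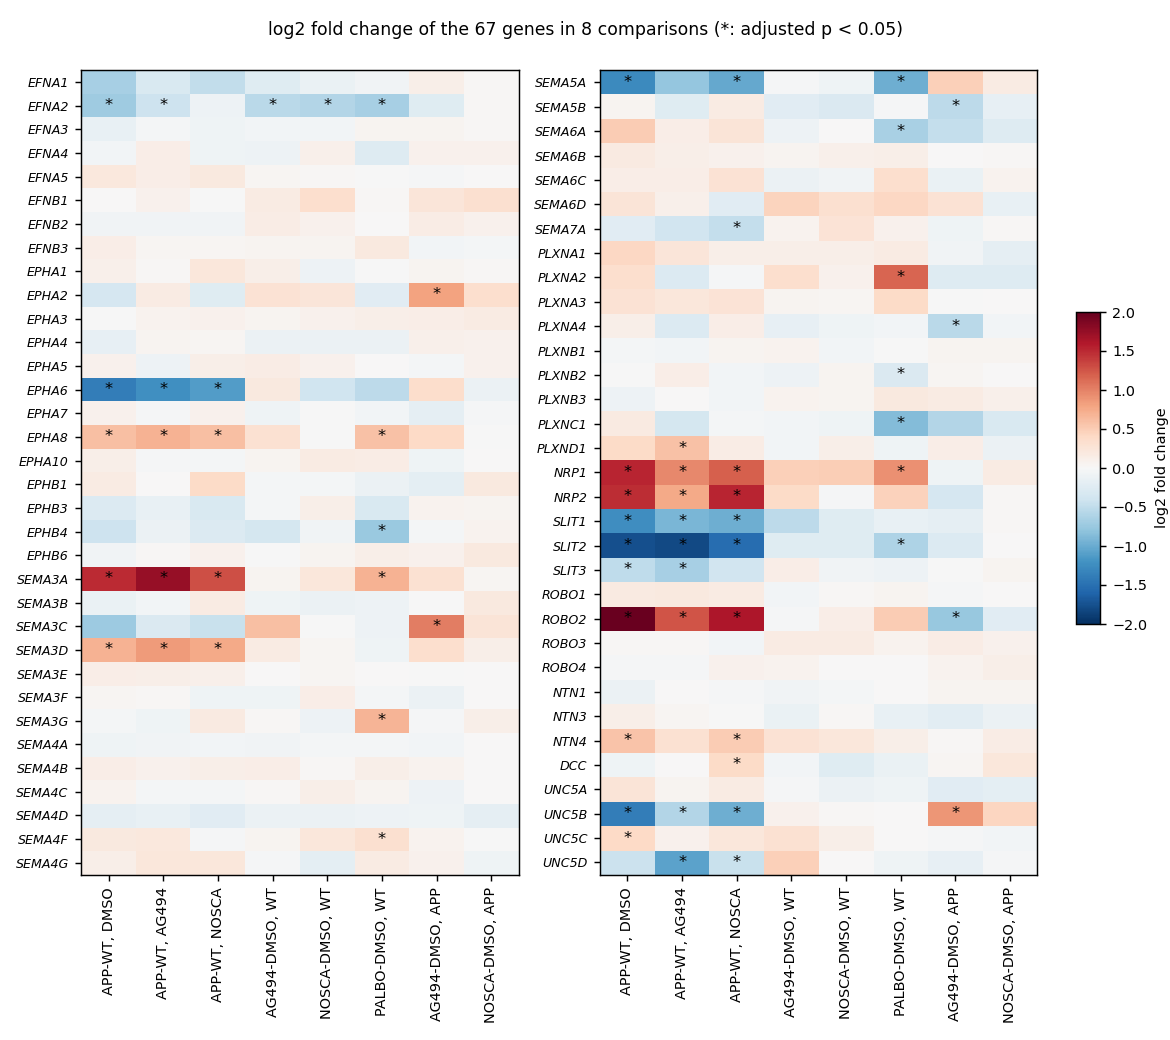
Log2 differences of the 67 members (rows) in the 8 comparisons of genotype or of compound with vehicle (columns), in colour from -2 to 2, with an asterisk where the adjusted p was under 0.05. The columns of the 3 genotype comparisons look alike for the slits, ROBO2, SEMA3A and the neuropilins, and those of NOSCA against vehicle are pale.

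The 37 members whose brightest probe set was called in none of the 8 comparisons without the replicate block were spread over the families. They were 7 of 8 ephrins (log2 differences from -0.66 to 0.34 over the 8 comparisons), 9 of 13 Eph receptors (-0.31 to 0.39), 11 of 20 semaphorins (-0.23 to 0.44), 4 of 9 plexins (-0.18 to 0.42), 3 of 4 robos (-0.06 to 0.20), 2 of 3 netrins (-0.21 to 0.12) and UNC5A (-0.22 to 0.25). These ranges leave out dimmer probe sets, of which those of EPHB1 reached 1.35 between genotypes under vehicle, where 3 of 6 were called, 1.15 under NOSCA, where 2 were called, and -1.10 with AG494 in APP cells, where 2 were called. With the replicate block, EFNA1, EFNA5, EFNB3, EPHB1, EPHB3, SEMA6C, SEMA6D, PLXNA1 and PLXNA3, all among these 37, were each called in at least 1 of the 8 comparisons. Every slit and neuropilin was called at least once without it. ROBO1, ROBO3 and ROBO4 thus stayed within 0.20 of no difference in every comparison in which ROBO2 differed by up to 1.98.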

How the data were processed

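Total RNA of 21 cultures, 25 ng each, was amplified and hybridised to PrimeView arrays. The deposited values are log2 intensities normalised by RMA (affy); this is per the submitters' processing notes, where versions are not given. No further scaling was applied. RMA equalises the distribution of the arrays, so that only differences relative to the other genes are seen. The table held 49372 probe sets, of which 44988 carried a single symbol in the platform annotation; 79 control probe sets, 1832 with several symbols and 2473 unlisted ones were left out. Each of the 18132 genes was represented by its brightest probe set, judged by the mean over the 21 arrays, and dim genes were kept.

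All 21 arrays entered 1 fit with limma 3.58.1 in R 4.3.3, with 1 coefficient per group and 14 residual degrees of freedom. P-values were two-sided and adjusted over all genes within a comparison. On simulated data the fit recovered 98% of genes changed by 1 and 100% of those changed by 2 on the log2 scale, with 7 false calls among 18132 genes. The simulated noise was independent between arrays, unlike that of the runs described below, and changes under 1 were not simulated. These figures therefore do not give the recovery of the smaller differences called here, nor the false calls with correlated runs.

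Deviations from the group means correlated by 0.226 to 0.685 in the 63 array pairs of the same run of title numbers and by -0.529 to 0.0889 in 126 pairs of different runs and groups, so the runs pair the arrays; the pairing comes from the titles. Blocked values are given where they change a call.

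Members and lists were chosen with earlier results of these data known. Named genes are up to 10 called members with the largest log2 difference per comparison in full, the rest with less detail, the 3 lowest p where fewer than 3 were called or for an interaction, and up to 4 called genes of other lists. Promoters are from RefSeq (57 of 67 members matched by symbol). The combination of APP cells with PALBO was not analysed here.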

Additional observations from a re-analysis of the deposited data

Results flagged for a closer look

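The response of UNC5B to AG494 was 0.80 higher on the log2 scale in APP than in WT cells. It stood out because the test of that difference between the genotypes was called with the replicate block (limma adjusted p = 0.0097), though not without it (adjusted p = 0.22). In WT cells UNC5B read 11.07, 10.79 and 10.51 with vehicle and 11.06, 10.92 and 10.61 with AG494, which overlap; in APP cells all 3 AG494 arrays lay above all 3 vehicle arrays.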

How the results depend on the processing

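No result changed direction under any alternative. With the run of title numbers as a replicate block the counts of called members moved by more than 1.5 times to 25 (genotype under vehicle), 23 (genotype under NOSCA), 4 (AG494 in WT cells), 20 (PALBO), 10 (AG494 in APP cells), 16 (PALBO against AG494), 16 (PALBO against NOSCA) and 1 (interaction of AG494 with genotype), and no call of the unblocked fit was lost; pairing changed no other call of a member than those given in the report. A fit of only the compared groups called 0 members for AG494 and 0 for NOSCA in WT cells, 6 for PALBO, 1 for PALBO against AG494 and 2 for PALBO against NOSCA. Between genotypes that fit lost SLIT3 and EPHA8 under vehicle and EPHA8, SEMA7A, NTN4 and DCC under NOSCA. For AG494 in APP cells it lost SEMA5B and PLXNA4. For PALBO against vehicle it lost EPHA8, SEMA3G, SEMA4F, SEMA5A, SEMA6A, PLXNB2 and PLXNC1. A trended and robust prior called 0 for NOSCA in WT cells. With 1 array left out the counts ranged from 13 to 23 (genotype under vehicle, 23 without WT_DMSO replicate 3), 11 to 14 (under AG494), 10 to 14 (under NOSCA), 0 to 1 (AG494 and NOSCA, each in WT cells), 8 to 11 (PALBO, 8 without WT_PALBO replicate 3), 2 to 5 (AG494 in APP cells), 2 to 8 (PALBO against AG494) and 3 to 8 (PALBO against NOSCA). The causes were not tested, and apart from the block the shares of all genes in these alternative fits are not given here. Of 1062 alternative values of the 82 called differences 867 kept their call and 195 lost it, none with a turned sign. Centring on array medians shifted the median of all genes by at most 0.071. The 3 arrays of a group and the lack of a detection call limit what can be said of dim members such as DCC and UNC5D.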
